A study of Homo sapiens with 6 samples.

Results

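The 4 polo-like kinase genes PLK1, PLK2, PLK3 and PLK4 were examined in RNA sequencing of paclitaxel (PTX)-resistant MDA-MB-231 cells, a human triple-negative breast cancer line. They were chosen by gene symbol, as 4 of the 61014 annotated genes on file, and they held 42 of the 252618 transcripts. The cells were separated by fluorescence-activated sorting on aldehyde dehydrogenase (ALDH) activity into BCSC (breast cancer stem cells, ALDH+) and non-BCSC (ALDH-), with 3 libraries each, and no PTX-sensitive or unsorted group was part of the comparison. All 6 libraries came from the same PTX-resistant line, and the groups were taken from the sample titles because the cell type field read breast cancer stem cells for all 6. The labels do not say whether libraries of a group came from separate cultures, so p-values measure the spread between these libraries only, which may be technical.

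Polo-like kinases are serine/threonine kinases with an amino-terminal kinase domain and a carboxy-terminal polo-box domain that docks the enzyme on its partners. PLK1 drives entry into mitosis, spindle assembly and cytokinesis. PLK4 is the master regulator of centriole duplication. PLK2 and PLK3 are better known as stress-inducible kinases, with roles in the response to DNA damage and growth signals and, for PLK3, to low oxygen. PTX stabilises microtubules and holds cells in mitosis, the stage at which PLK1 acts.

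The annotated start regions of these genes carry different short motifs. Shown here are stretches with the cell cycle motif in PLK1 and PLK4, a CCAAT box in PLK1 and the TATA motif in PLK2. The other matches are given below by position only. Windows of 250 bases before to 50 bases after each start (RefSeq, GRCh38.p14) were searched on both strands for TTTGAA (the cell cycle genes homology region, CHR), CCAAT (the binding motif of NF-Y), TATAA (core of the box bound by TBP) and ACGTG (core of the hypoxia response element). Capitals mark the motif in each 30-base stretch, written 5′ to 3′ on the strand of the gene.
PLK1 CHR, chr16:23678848-23678877, plus strand: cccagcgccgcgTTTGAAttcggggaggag
PLK1 CCAAT box, chr16:23678803-23678832, plus strand: taaatccccgcggCCAATcagtggcgcgca
PLK2 TATA box, chr5:58460098-58460127, minus strand: ccgcctccccgtaTATAAgacttcgccgag
PLK4 CHR, chr4:127880913-127880942, plus strand: ggcaagcggcgggagattTTCAAAatggga

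The PLK1 CHR lay 29 bases and its CCAAT box 73 bases before the start. The PLK2 TATAA lay 28 bases before its start. In PLK4, which has 3 annotated windows, the CHR match was on the opposite strand and 39 bases after the start of 1 of them, and a CCAAT match on the opposite strand lay 86 bases before the start of another. ACGTG was present 197 bases before the PLK1 start and 75 bases before the PLK2 start. None of the 4 motifs was found in the single PLK3 window. Across 35116 windows of all genes, the CHR was present in 15.2%, the CCAAT box in 34.6%, the TATA box core in 20.4% and the hypoxia core in 21.4%, so a match alone is common and is given as a description.

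Library totals were 15925943 to 21215352 counts in BCSC and 9898588 to 12263667 in non-BCSC, and pairs of libraries within a group differed by more than counting error. The summed level of 8 genes expected to be high in MDA-MB-231, such as VIM and CD44, was 7921 to 8367 TPM (counts corrected for transcript length and scaled to a common total) in BCSC and 5693 to 7749 in non-BCSC, against 86.7 to 131 for 8 luminal and hormone receptor genes over all 6 libraries. VIM and CD44 made up most of the first sum. KRT18, at 1.45 to 26.8 TPM over all 6 libraries, and TGFBI, at 1.44 to 11.5 TPM, were the lowest of its 8 genes. The summed levels of several gene groups that this line should not use were higher in non-BCSC. The 406 olfactory receptor genes took 1.05, 1.11 and 3.19 counts per kb in BCSC, against 8.29, 9.97 and 15.3 in non-BCSC. The summed leukocyte markers were 3.60 to 7.33 and 13.5 to 29.0 TPM, 4 endothelial markers 22.0 to 33.7 and 45.9 to 66.4, and 6 adipocyte and fibroblast markers 3.46 to 6.83 and 13.2 to 45.4. Single markers could go the other way, as did the leukocyte marker CD68, with 48, 50 and 26 counts in BCSC, against 0, 1 and 0 in non-BCSC. The part of this background in the differences below was examined only by removing the olfactory receptor estimate, and the part of the cell type markers was not tested.

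To compare the kinases with each other, levels per length were used. PLK2 was the most abundant, at 204, 223 and 207 TPM in BCSC, against 254, 276 and 189 in non-BCSC. PLK4 followed with 114, 142 and 162 TPM in BCSC, against 98.8, 107 and 152 in non-BCSC, and PLK1 with 143, 133 and 94.4 and with 101, 95.2 and 87.8 in the same order. PLK2 exceeded both in every library, but the order of PLK1 and PLK4 changed between libraries, with a PLK1 to PLK4 ratio of TPM of 1.26, 0.932 and 0.582 in BCSC, against 1.02, 0.892 and 0.576 in non-BCSC. The mean ratios of 0.924 ± 0.338 and 0.829 ± 0.228 (SD, n = 3 each) differed by less than that spread. PLK3 was far below the other members, at 7.55, 1.51 and 4.55 TPM in BCSC, against 0.840, 2.42 and 0 in non-BCSC. By mean TPM among 19955 protein-coding genes, PLK2 ranked 762 in BCSC against 613 in non-BCSC, PLK4 ranked 1364 and 1535, PLK1 1592 and 2038, and PLK3 10649 and 14525.

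The 4 kinases together reached 468 to 499 TPM in BCSC and 429 to 480 in non-BCSC, ranges that overlap. Within that sum PLK2 took 44.1% ± 0.608 (SD, n = 3) in BCSC and 52.5% ± 7.31 (n = 3) in non-BCSC. PLK1 took 25.8% ± 5.27 and 20.8% ± 1.23, and PLK4 29.2% ± 5.18 and 26.5% ± 7.79. PLK3 made up 0.962% ± 0.654 of the family in BCSC and 0.230% ± 0.255 in non-BCSC. For all 4 shares the BCSC and non-BCSC libraries overlapped.

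To determine whether any member differed between BCSC and non-BCSC, counts were summed per gene and tested with the edgeR quasi-likelihood test over 20442 genes. A gene was called at a Benjamini-Hochberg adjusted p under 0.05 and a fold change above 2. None of the 4 was called, and at an unadjusted p under 0.05 there was 1 (PLK1), where the shares over all genes tested were 20.1% and 43.1%. None had an adjusted p under 0.05 with no minimum fold, which 29.9% of all genes did. The 3 BCSC values overlapped the 3 non-BCSC values for all 4, while they did not overlap for 52.1% of all genes. No member was called by DESeq2 or in any other alternative in which it was tested.

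**Figure D1:**
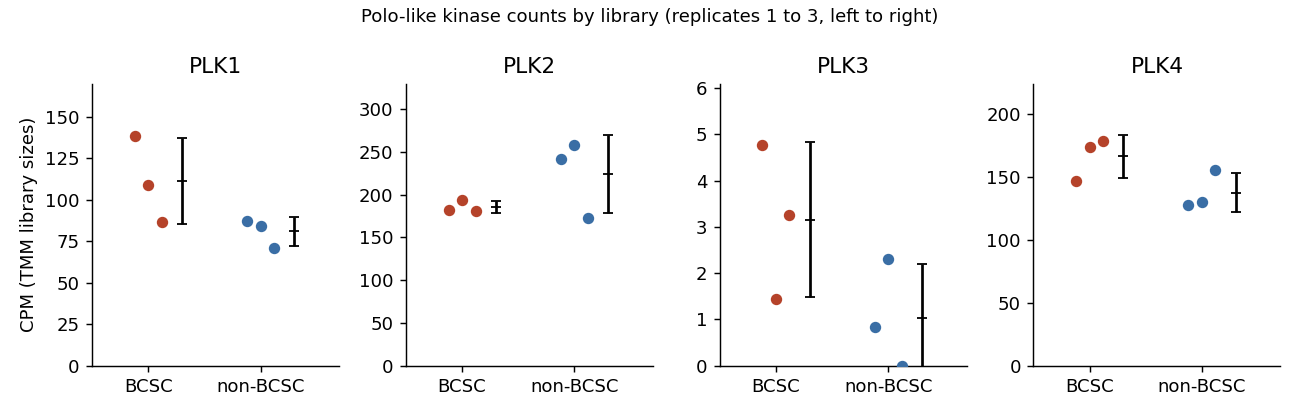
CPM (counts scaled for sequencing depth, y axis, from 0, one scale per gene) of each kinase in the 3 BCSC (red) and 3 non-BCSC (blue) libraries, with the mean and SD (n = 3) in black to the right of each group. The groups overlap in every panel, and PLK3 is read at 0 to 4.78 CPM, where the other members are at 70.9 to 259; the lower SD bar of PLK3 in non-BCSC is cut at 0.

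PLK1, the mitotic member, was read at 138, 109 and 86.5 CPM (on TMM-scaled library sizes) in BCSC and at 87.5, 84.3 and 70.9 CPM in non-BCSC, from 739 to 2807 counts. BCSC replicates 1 and 2 lay above all non-BCSC libraries, and BCSC replicate 3 lay between non-BCSC replicates 1 and 2. The means were 111 ± 25.9 and 80.9 ± 8.81 CPM (SD, n = 3 each). The log2 fold change (BCSC over non-BCSC) was 0.46 (SE 0.17, 95% interval 0.07 to 0.85), with an adjusted p of 0.0718 by edgeR, where the median over all genes was -0.05. Without BCSC replicate 3 it was 0.61 with an adjusted p of 0.0290, without BCSC replicate 1 it was 0.27 with 0.261, and with the olfactory receptor background removed it was 0.23 with 0.314. After a correction for GC content and length it turned to -0.46 with an adjusted p of 0.0285. The annotated transcripts of PLK1 (ENSG00000166851, GRCh37 chr16:23688977-23701688, plus strand) have a mean GC content of 57.1%, not weighted by counts.

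PLK4, the centriole kinase, was read at 147, 174 and 179 CPM in BCSC, against 128, 130 and 156 CPM in non-BCSC, from 1471 to 2982 counts. Non-BCSC replicate 3 lay above BCSC replicate 1, and the other libraries were in the order of their groups. The means were 167 ± 17.4 and 138 ± 15.3 CPM (SD, n = 3 each). The log2 fold change was 0.27 (SE 0.13, 95% interval -0.01 to 0.55), with an adjusted p of 0.123 by edgeR. It was 0.90 with an adjusted p of 0.00099 after the GC and length correction, and 0.05 once the olfactory receptor background was removed. PLK4 (ENSG00000142731, GRCh37 chr4:128802048-128820379, plus strand) has a mean GC content of 40.2% over its annotated transcripts, the lowest of the 4.

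PLK2 was read at 182, 194 and 181 CPM in BCSC, against 242, 259 and 173 CPM in non-BCSC, from 1800 to 3691 counts. The BCSC libraries lay close together, and non-BCSC replicate 3 lay below all of them while the other two lay above. The means were 186 ± 7.34 and 224 ± 45.6 CPM (SD, n = 3 each). The log2 fold change was -0.27 (SE 0.15, 95% interval -0.60 to 0.05), with an adjusted p of 0.181 by edgeR. Without non-BCSC replicate 3 it was -0.41 with an adjusted p of 0.0364, without non-BCSC replicate 2 it was -0.11 with 0.628, and without non-BCSC replicate 1 it was -0.16 with 0.500. With the olfactory receptor background removed it was -0.51 with 0.0242, and after the GC and length correction it was 0.16 with 0.506. PLK2 (ENSG00000145632, GRCh37 chr5:57749809-57755966, minus strand) has a mean GC content of 42.9% over its annotated transcripts.

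PLK3, the kinase that the study follows as a partner of the lncRNA LINC00115, had 97, 22 and 54 counts in BCSC, against 10, 26 and 0 in non-BCSC. These were 4.78, 1.44 and 3.27 CPM against 0.825, 2.30 and 0 CPM, so that non-BCSC replicate 2 lay above BCSC replicate 2. The log2 fold change was 1.59 with a wide error (SE 1.17, 95% interval -1.02 to 4.21) and an adjusted p of 0.326 by edgeR. The spread between the libraries of a group leaves differences within that interval unresolved. Set against the olfactory receptor genes of the same library, PLK3 was 71.6, 15.4 and 13.1 times as dense in counts per kb in BCSC but 0.937, 2.02 and 0 times in non-BCSC. In non-BCSC its density was thus at most 2.02 times that of genes this line should not use. PLK1, PLK2 and PLK4 were 40.1 to 3723 times as dense as those genes over the 6 libraries. On group means the ratio was 915 in BCSC against 68.0 in non-BCSC for PLK1, 1916 against 242 for PLK2 and 866 against 74.6 for PLK4. The ratio was thus lower in non-BCSC for all 4 kinases, and the olfactory receptor density itself was higher there. These densities use the mean length over all annotated transcripts of a gene. It was 942 bases for PLK2 and 1288 for PLK3, where their main transcripts PLK2-201 and PLK3-204 have 2786 and 2477. On the length of those transcripts both densities would be lower. PLK3 (ENSG00000173846, GRCh37 chr1:45266049-45271662, plus strand) has a mean GC content of 58.7% over its annotated transcripts, the highest of the 4.

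**Figure D2:**
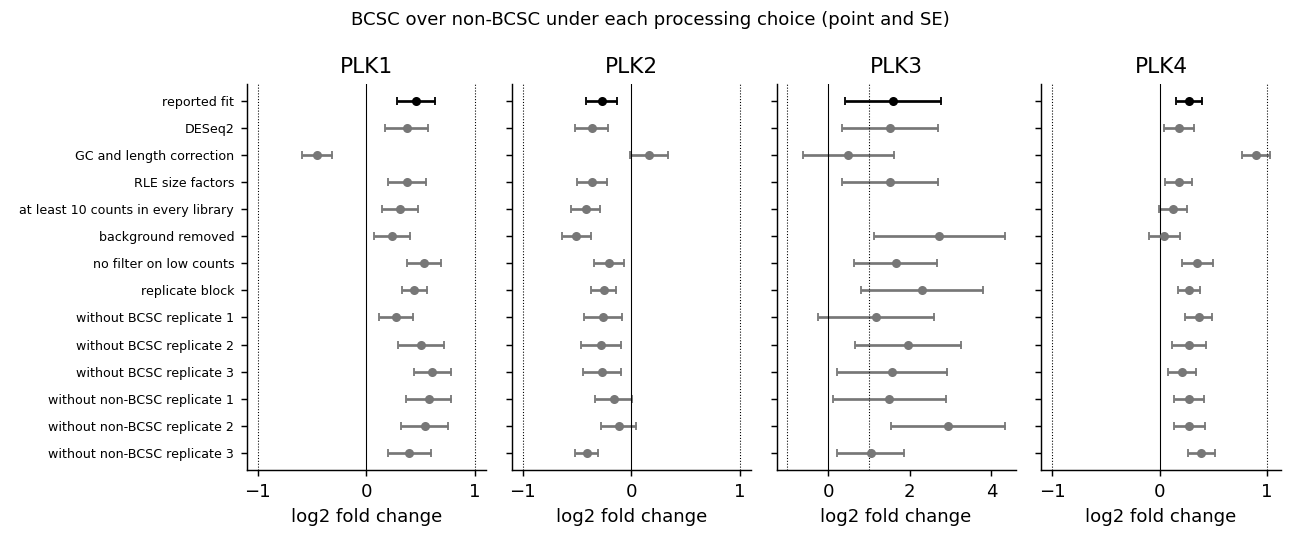
Log2 fold change of each kinase (x axis, BCSC over non-BCSC; point with SE; the PLK3 panel has a wider scale) in the reported fit (black) and in each alternative that changes it (grey), with dotted lines at a fold of 2. The GC and length correction moves PLK1 from 0.46 to -0.46, PLK2 from -0.27 to 0.16 and PLK4 from 0.27 to 0.90, and PLK3 could not be fitted where 10 counts in every library were required.

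The table lists transcripts, so the transcripts behind each sum were examined next. Of the 42 transcripts, 9 were at 0 in all libraries, 25 had at least 10 counts in total and 15 passed the filter on low counts and were tested. None of the 15 was called (edgeR, adjusted over 46176 transcripts), against 0.784% of all transcripts tested. At an unadjusted p under 0.05 there was 1 of 15, against 17.4% of all, and the same transcript was the 1 called by DESeq2. How reads were divided among overlapping transcripts of a gene is not given in the sources used here, so the split within a gene is less certain than its sum.

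That transcript was PLK2-205 (690 bases, GRCh37 chr5:57751974-57753106), which keeps an intron and does not code for the kinase. It had 69, 34 and 54 counts in BCSC, against 19, 10 and 10 in non-BCSC, so the groups did not overlap, as was the case for 32.8% of all transcripts tested. Its log2 fold change was 1.45 (SE 0.57) with an adjusted p of 0.273 by edgeR, and 1.41 with an adjusted p of 0.0259 by DESeq2. The coding transcript PLK2-201 had 3398, 2709 and 2803 counts in BCSC, against 2782, 2813 and 1713 in non-BCSC, with a log2 fold change of -0.25 (SE 0.20). Of the 12 PLK2 transcripts annotated with a retained intron, 10 had at least 10 counts in total. Besides PLK2-205 the tested ones were PLK2-203, PLK2-204, PLK2-209, PLK2-210, PLK2-211 and PLK2-214, with log2 fold changes from -1.30 to 0.96 and overlapping groups, and PLK2-208, PLK2-212 and PLK2-213 were too low to test.

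As a share of all PLK2 counts, the retained-intron transcripts took 7.94%, 9.00% and 6.44% in BCSC, against 5.15%, 3.86% and 4.83% in non-BCSC. All 3 BCSC libraries lay above all 3 non-BCSC libraries, with means of 7.79% ± 1.29 and 4.61% ± 0.671 (SD, n = 3 each). How often such shares separate in genes other than the kinases was not examined. An exact permutation test, two-sided, returned p = 0.1, the lowest value possible for 3 against 3 libraries, and 0.3 when adjusted over the 6 shares tested. This permutation test therefore cannot pass 0.05 for a share. The 6 shares were not independent of each other. The PLK2-201 share was the remainder of the PLK2 retained-intron share, and PLK1-202 held most of the PLK1 retained-intron counts.

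PLK1 was counted mainly on its coding transcript PLK1-201, with 1989, 1615 and 924 counts in BCSC, against 1016, 806 and 694 in non-BCSC. The retained-intron transcript PLK1-202 (4135 bases) varied far more, with 787, 45 and 488 counts in BCSC, against 42, 146 and 43 in non-BCSC. It was high in BCSC replicates 1 and 3 and low in BCSC replicate 2, so that retained-intron transcripts held 29.1%, 3.29% and 35.4% of PLK1 in BCSC, against 4.15%, 15.5% and 6.09% in non-BCSC (exact permutation p = 0.4, adjusted p = 0.6). The coding transcript alone had a log2 fold change of 0.31 (SE 0.31), with an adjusted p of 0.711 by edgeR over all transcripts. PLK1-203, PLK1-205 and PLK1-206 had 14 to 32 counts in total and were not tested.

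PLK4 was counted on PLK4-201, the full-length coding transcript, with 2445, 2249 and 2673 counts in BCSC, against 1491, 1019 and 1479 in non-BCSC. A second coding transcript, PLK4-203, was present in some libraries only, with 428, 310 and 102 counts in BCSC, against 0, 402 and 0 in non-BCSC. Its share of PLK4 was 14.4%, 11.6% and 3.44% in BCSC, against 0%, 27.3% and 0% in non-BCSC (exact permutation p = 1.0). Retained-intron transcripts took 3.59%, 3.98% and 6.34% of PLK4 in BCSC, against 3.93%, 3.33% and 8.63% in non-BCSC (exact permutation p = 0.9), mostly PLK4-204 and PLK4-206, with PLK4-202 and PLK4-207 at 21 and 50 counts in total. A 0 in a non-BCSC library allows up to 3 counts, or 0.248 to 0.288 CPM, a limit for counting error only.

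PLK3 was counted mainly on a transcript without a defined coding sequence. Its canonical coding transcript PLK3-201 (15 exons, 2340 bases) had 24, 0 and 6 counts in BCSC, against 0 in each non-BCSC library. PLK3-204 (14 exons, 2477 bases), annotated without a defined coding sequence, had 50, 22 and 42 counts in BCSC, against 10, 26 and 0 in non-BCSC, and made up the whole PLK3 sum in BCSC replicate 2 and in both non-BCSC libraries with any count. PLK3-203, also without a coding sequence, had 17, 0 and 4 counts in BCSC, against 0 in each non-BCSC library. The log2 fold change of PLK3-204 was 1.11 (SE 1.34), with an adjusted p of 0.766 by edgeR.

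**Figure D3:**
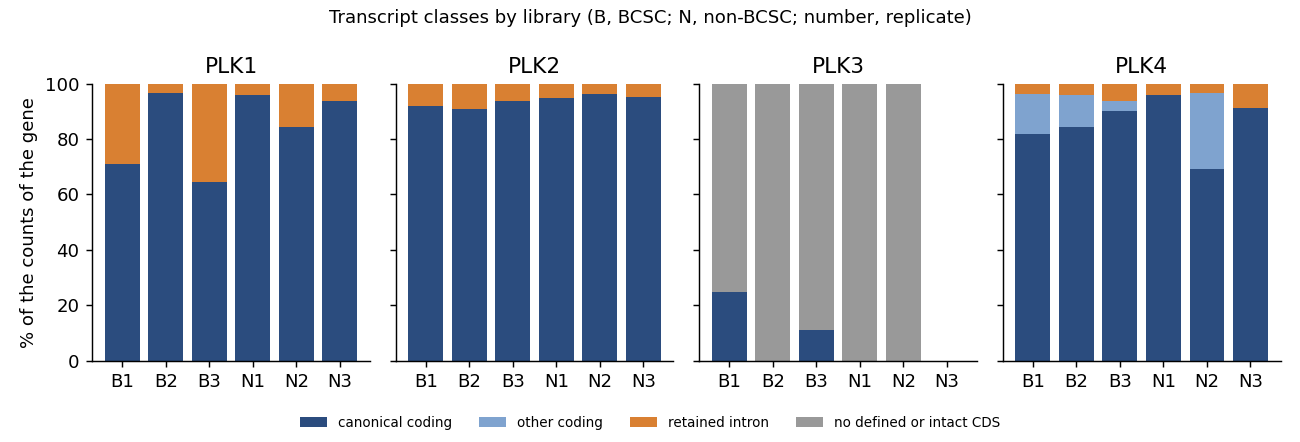
Share of the counts of each kinase gene (y axis, percent) on its canonical coding transcript, other coding transcripts, retained-intron transcripts and transcripts with no defined or intact coding sequence, in BCSC (B1 to B3) and non-BCSC (N1 to N3) libraries. PLK2 shows a small retained-intron share that is larger in each BCSC library (6.44% to 9.00%) than in each non-BCSC library (3.86% to 5.15%), and PLK3, with no count in N3, is mostly on transcripts with no defined coding sequence. Shares of genes other than the kinases were not examined.

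Reads from an overlapping gene on the opposite strand cannot be told apart unless strand was used in counting, which is not stated. PLK1 overlaps ERN2 (0, 3 and 0 counts in BCSC, against 6, 19 and 13 in non-BCSC) and the lncRNA ENSG00000261266 (6, 3 and 4 in BCSC, against 0, 1 and 0 in non-BCSC). PLK3 overlaps DYNLT4, which had 0 counts in all 6 libraries. PLK4 contains the small nuclear RNA pseudogene RNU6-583P on its own strand (4, 4 and 7 in BCSC, against 1, 4 and 6 in non-BCSC), and no gene overlaps PLK2. These counts are small beside those of PLK1 and PLK4.

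The partners of the kinases were then compared in 3 lists of pathway genes. Of 37 genes that activate PLK1, are its substrates or work with it in mitosis, all were tested, and 11 were called higher and 0 lower in BCSC (edgeR). The background is 8.85% of all genes called higher and 11.3% called lower. At an adjusted p under 0.05 with no minimum fold, 20 of the 37 were higher and 1 lower, where 15.3% of all genes were higher and 14.6% lower. The median log2 fold change of the list was 0.34, against -0.05 over all genes.

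AURKA, the kinase that activates PLK1 by phosphorylation, rose from 36.9 ± 1.10 to 80.9 ± 9.57 CPM (SD, n = 3 each), a log2 fold change of 1.13 (SE 0.14, adjusted p = 0.00102 by edgeR). FOXM1 and MYBL2, transcription factors that drive G2/M genes including PLK1, rose by log2 fold changes of 1.64 and 1.60. The chromosomal passenger genes AURKB, INCENP and BIRC5 rose by 1.53, 1.25 and 1.10. With the GC and length correction AURKA (1.23) and FOXM1 (1.09) were still called, whereas AURKB (0.61), INCENP (0.28), BIRC5 (0.67) and MYBL2 (0.45) were not. Over the whole list 10 of the 37 were called higher with that correction, where 1141 of all 20442 genes were. AURKA and BIRC5 were short of the fold where at least 10 counts in every library were required (0.98 and 0.95) or the background was removed (0.95 and 0.89), as were INCENP and BIRC5 without BCSC replicate 1 (0.99 each). Members of the mitotic entry switch were divided. CCNB1 (cyclin B) had a log2 fold change of -0.07, CCNB2 of -0.06, CDK1 of 0.20 and CDC25C, a phosphatase that activates CDK1, of 0.09. CDC25B, another such phosphatase, rose by 1.04 (adjusted p = 0.0156 by edgeR). PKMYT1, a kinase that inhibits CDK1, rose by 3.33 (SE 0.95, adjusted p = 0.0267 by edgeR). It had 264, 106 and 110 counts in BCSC, against 0, 19 and 10 in non-BCSC. WEE1, another kinase that inhibits CDK1, had -0.23 (adjusted p = 0.217 by edgeR). CCNB2, CDC25B, PKMYT1 and WEE1 were named after their values were seen. The AURKA cofactors BORA and TPX2 had 0.15 and -0.02, and FBXO5, an inhibitor of the anaphase-promoting complex that PLK1 marks for destruction, had 0.32. None of CCNB1, CDK1, CDC25C, BORA, TPX2 and FBXO5 had an adjusted p under 0.05 in the reported fit, but with the GC and length correction CDK1 (1.01, adjusted p = 0.00312) and FBXO5 (1.12, adjusted p = 0.00279) were called and BORA had 0.67 (adjusted p = 0.0193). PRC1, the midzone protein that binds PLK1 in anaphase, was the 1 gene with an adjusted p under 0.05 in the other direction, at 222 ± 42.6 CPM in non-BCSC and 118 ± 13.9 in BCSC (log2 fold change -0.91, SE 0.16, adjusted p = 0.00362 by edgeR). It was short of a fold of 2 and was named after its value was seen.

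Of 30 genes of centriole duplication and PLK4 turnover, all were tested, and 2 (6.67%) were called higher and 0 lower in BCSC, near the background of 8.85% for higher calls. The median log2 fold change was 0.16. CNTROB, a daughter-centriole protein, rose by 1.95 (SE 0.41, adjusted p = 0.00843 by edgeR), and TUBG1, the gamma-tubulin of the pericentriolar material, by 1.26 (SE 0.31, adjusted p = 0.0152). The TUBG1 call was lost when BCSC replicate 1, non-BCSC replicate 2 or non-BCSC replicate 3 was left out, with log2 fold changes of 0.89, 1.17 and 1.26 and adjusted p of 0.0546, 0.0620 and 0.0547, and with the GC and length correction it had 0.42. The PLK4 substrate STIL and the cartwheel protein SASS6 passed the adjusted p but not the fold, with log2 fold changes of 0.54 (adjusted p = 0.0220) and 0.62 (adjusted p = 0.0248) by edgeR. With the GC and length correction both were called (1.12 and 1.51). With the background removed neither passed the adjusted p (0.126 and 0.0768), and it was also missed by STIL without BCSC replicate 1 (0.0598) or 2 (0.0621), and by SASS6 without BCSC replicate 2 (0.0959) or 3 (0.0693) or non-BCSC replicate 2 (0.0671) or 3 (0.0653). The scaffolds that recruit PLK4, CEP152 and CEP192, had 0.27 and -0.00021, the centriole length regulator CENPJ -0.28, and TRIM37, a ubiquitin ligase that restrains centrosome assembly, -0.04. SKP1, a subunit of the ubiquitin ligase that degrades PLK4, was lower in BCSC (log2 fold change -0.46, adjusted p = 0.00665 by edgeR), short of the fold and named after its value was seen.

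Of 33 genes of the damage, growth and low-oxygen responses linked to PLK2 and PLK3, 32 were tested, and 7 were called higher and 1 lower in BCSC, against 8.85% and 11.3% of all genes. The median log2 fold change was 0.50. CDKN1A, the cell cycle inhibitor p21, rose by 1.90 (log2 fold change, SE 0.34, adjusted p = 0.00422 by edgeR), SESN2, a stress-inducible regulator of mTORC1, by 2.12, GADD45A, a damage-inducible gene, by 1.22, CDC25A, a phosphatase of the G1/S switch, by 1.64, and TSC2, a repressor of mTORC1, by 1.24. The count called lower was 0 without BCSC replicate 2, non-BCSC replicate 1 or non-BCSC replicate 3. With the GC and length correction 3 of this list were called higher, among them SESN2 (1.04) and CDC25A (1.15), and CDKN1A (0.79), GADD45A (0.20) and TSC2 (0.0024) were not.

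The study places PLK3 beside SETDB1, a histone H3K9 methyltransferase, and HIF1A, the oxygen-regulated transcription factor. Its claims concern proteins, namely methylation of PLK3 by SETDB1 and stability of HIF1α, and it detected PLK3 protein in BCSC. RNA counts measure neither methylation nor protein stability. HIF1A was at 3154 ± 298 CPM in non-BCSC and 2333 ± 124 in BCSC (SD, n = 3 each). Every non-BCSC library lay above every BCSC library, as was the case for 27.9% of all genes tested. The HIF1A log2 fold change of -0.44 (SE 0.10, adjusted p = 0.0106 by edgeR) was short of a fold of 2, and the GC and length correction turned it to 0.12. SETDB1 had 0.45 (SE 0.18) with an adjusted p of 0.0910, and CIB1, a calcium-binding protein that binds PLK2 and PLK3, had 0.42 (SE 0.33) with an adjusted p of 0.355, both by edgeR.

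**Figure D4:**
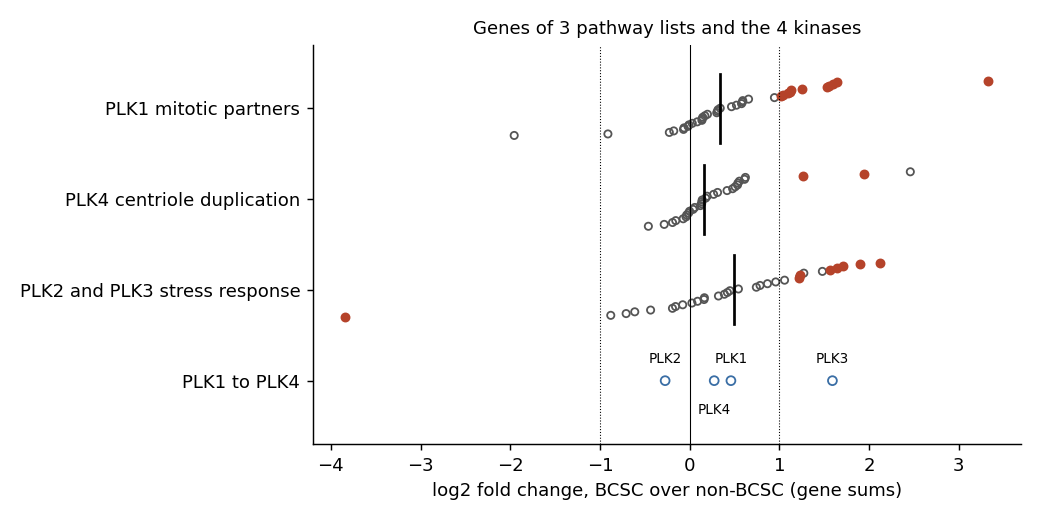
Log2 fold change (x axis, BCSC over non-BCSC, gene sums) of each tested gene of the 3 pathway lists and of the 4 kinases, with filled points for genes called, open points for genes not called, a bar at the median of each list and dotted lines at a fold of 2. The medians are 0.34, 0.16 and 0.50, and the 4 kinases are all open points, at 0.46, -0.27, 1.59 and 0.27.

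Profiles over the 6 libraries were compared by the root mean square distance of log2 CPM, with 1 added to each CPM, centred on each gene. The genes nearest to each kinase were found among 10470 genes with a mean count of at least 100 (10471 for PLK3). For PLK1 they were RPL19 (distance 0.040), GNAI2 (0.045) and RIN2 (0.052). For PLK2 they were MRPL32 (0.040), SQOR (0.049) and POPDC3 (0.055), and for PLK4 MDM4 (0.044), CMC2 (0.046) and KITLG (0.049). The profile of PLK3, from few counts, was less closely matched, by ATXN7L3 (0.116), H2AC12 (0.267) and FAM20C (0.285). No gene of the 3 pathway lists was among these 12, which says little, as the lists hold few of the 10470 genes compared. With 6 libraries such distances are a description only.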

How the data were processed

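Total RNA of 6 libraries was converted with random primers and dUTP second-strand marking, per the labels. The authors deposited estimated counts per transcript in whole numbers, not normalized. The study's methods name HISAT2 and hg19, the submitters' processing notes name HISAT2, featureCounts, DESeq2 and hg38, and the step that assigned reads to transcripts is not given in the sources used here. Transcripts were matched by identifier to GENCODE 44 on GRCh37 (249787 of 252618, and unmatched ones held 0.273% of counts) and summed per gene. Gene positions are GRCh37 and promoter windows GRCh38.p14.

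Gene sums and transcripts were tested with edgeR 4.0.16 (R 4.3.3; TMM, expression filter, robust quasi-likelihood fit, group as the only term, Benjamini-Hochberg over all features). TPM was computed from transcript counts and lengths. For gene sums, length and GC content were means over all matched transcripts of a gene, also those without counts. Shares were compared by exact permutation in scipy 1.17.1. The members and the lists were chosen with earlier results of these data known. Named were the 4 kinases, their transcripts with at least 10 counts, 19 partners always given, up to 6 called genes per list by smallest p, and the 3 genes nearest in profile. Some genes that this rule or the marker lists hold are not reported here. PRC1, SKP1, CDC25B, PKMYT1, WEE1, CCNB2, CD68, KRT18 and TGFBI were added after their values were seen. Alternatives were RLE size factors, DESeq2 1.42.0, other filters, a replicate block, a GC and length correction (loess, span 0.3), removal of the olfactory receptor background, no minimum fold and each library left out. The edgeR and DESeq2 gene fits were also run on simulated gene counts with no minimum fold. That run did not cover the transcript fits or the fold threshold. Of 5 endothelial markers, 4 were matched.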

Additional observations from a re-analysis of the deposited data

How the results depend on the processing

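None of the 4 kinases was called in any of 14 alternatives (13 for PLK3, which could not be fitted with at least 10 counts in every library). At an adjusted p under 0.05 with no regard to fold, PLK1 was higher in 3 and lower in 1 of them, PLK2 lower in 4, PLK4 higher in 1 and PLK3 in 0. The GC and length correction turned PLK1 to -0.46 and PLK2 to 0.16 (log2 fold change). PLK3 ran from 0.49 to 2.93, with adjusted p from 0.168 to 0.766. The median over all genes was -0.05 in the reported fit, -0.14 with RLE size factors or DESeq2, -1.02 with no filter and 0.09 with the background removed. Deviations of same-numbered libraries from their group means correlated at r of 0.247, 0.0405 and 0.260, and each library correlated best with its own number. The labels do not say whether these libraries were paired, and the values cannot settle it. With the replicate block, 1994 genes were called higher and 2321 lower, against 1810 and 2307, and PLK1 had 0.44 (adjusted p = 0.0170), PLK2 -0.25, PLK3 2.30 and PLK4 0.27.

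The PLK1 partners called higher numbered 5 with at least 10 counts in every library, 7 with the background removed, 20 with no minimum fold, and 5 to 11 with a library left out, lowest without BCSC replicate 1 and 7 without non-BCSC replicate 3. Called lower was 1 with DESeq2, RLE size factors, at least 10 counts in every library, the background removed or no minimum fold, and 0 to 1 with a library left out. The centriole genes called higher numbered 5 with the GC and length correction, 9 with no minimum fold and 1 to 2 with a library left out, and 1 was lower with no minimum fold. The stress genes called higher numbered 3 with the GC and length correction. Called lower were 2 with that correction or no minimum fold, 0 with at least 10 counts in every library or the background removed, and 0 to 1 with a library left out. DESeq2 called 1 kinase transcript higher. Over all genes the numbers called also changed. In the reported fit 1810 were higher and 2307 lower of 20442. With at least 10 counts in every library they were 1383 and 1177 of 13216, and with the background removed 1789 and 1088 of 16531. With the GC and length correction they were 1141 and 2248 of 20442, and with no minimum fold 3125 and 2978. With a library left out, 959 (without BCSC replicate 1) to 2230 were higher and 1103 to 3004 lower. The cause of these changes was not tested.

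The GC and length correction turned SKP1 (0.13) and HIF1A (0.12), which had an adjusted p under 0.05 in the reported fit, and also TPX2 (0.14), CCNB1 (0.25), CENPJ (0.31), CEP192 (0.52), TRIM37 (0.23) and CIB1 (-0.49). With no filter the direction turned for TPX2 (0.051), CCNB1 (0.0041), CEP192 (0.073) and TRIM37 (0.035). With the background removed it turned for BORA (-0.053), CDK1 (-0.034) and CDC25C (-0.090). With at least 10 counts in every library it turned for BORA (-0.0041) and CDC25C (-0.061), and for CDC25C also with DESeq2 (-0.0028) and RLE size factors (-0.0028). With a library left out, TPX2 ran from -0.098 to 0.13, CCNB1 from -0.087 to 0.057, CDC25C from -0.0067 to 0.32, CEP192 from -0.022 to 0.045 and TRIM37 from -0.089 to 0.064. The difference in PLK4 share ran from -3.86 to 9.81 percentage points for PLK4-203 and from -1.65 to 1.005 for retained introns, so both rest on single libraries. For PLK1 retained introns it ran from 7.61 to 23.7 and for PLK2 from 2.58 to 3.86.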

Other observations

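PLK5, a human paralogue that is not among the 4 kinases compared, had 5 counts in non-BCSC replicate 1 and 0 in the other libraries, and was not tested.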
